A study of Drosophila melanogaster with 5 samples.

Results

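Lists of translated open reading frames (ORFs) from *D. melanogaster* S2 cells footprinted under the same condition at different depth were compared. Both samples were untreated with cycloheximide before the cells were pelleted, though per the methods all cells were then washed in PBS that held it. The polysome lysis buffer that the paper lists also held cycloheximide. Both were digested with E-RNaseI in Buffer 2, and they are called the standard and the deep list. They are 2 of the 5 samples of the series, with 1 sample a side. The other 3 samples, used here only to look up single ORFs, were E-RNaseI in Buffer 2 with cycloheximide, and A-RNaseI in Buffer 1 with and without cycloheximide. S2 cells are a cultured line of embryonic origin with hemocyte (blood cell) features, and no genetic change or tag is given for them. Buffer 2 is the low ionic buffer, with 100 mM Tris-HCl, 10 mM MgCl2 and, per the labels, 50 mM NaCl (the methods state a lower NaCl concentration), and footprinting was at 4°C. Whether both lists came from the same library is stated neither in the labels nor in the methods. For the series the methods describe subsampling to a fixed number of reads per sample. With 617421 P-sites summed over the stop codons of the standard list and 9141565 over those of the deep list, these 2 were not both brought to the same number. The depth of the deep list is not stated. Any difference between the lists is therefore a difference between these samples, and no test between them was possible.

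In Ribo-Seq the pieces of mRNA that a ribosome shields from RNase are sequenced, and the position of the codon in the ribosomal P-site is inferred from each footprint. RiboTaper calls an ORF where P-sites follow triplet periodicity, with 50% or more of them in frame. Where several in-frame start codons lead to the same stop codon, the most upstream one with a small fixed number of P-sites before the next ATG is taken. That number, like the condition that an exon holds more than 5 P-sites, is a count and is not scaled to depth. ORFs are typed as CCDS ORFs, uORFs upstream of the main ORF, dORFs downstream of it, and ncORFs on RNAs annotated as non-coding. A CCDS ORF overlaps a known coding region and need not be the whole annotated coding sequence.

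Stop codons were used to match the lists, since ORFs that end at the same stop codon encode the same reading frame whatever start codon was called. The standard list held 8456 ORFs on 8339 transcripts, with 5811 stop codons in 4808 genes, and the deep list held 12048 ORFs on 11335 transcripts, with 7976 stop codons in 6124 genes. The standard list held 617421 P-sites and the deep list 9141565, counted once per stop codon on its longest ORF. P-sites in exons that ORFs with different stop codons share enter these sums more than once. Of the stop codons in the standard list 5791 (99.7%, Wilson 95% interval 99.5 to 99.8) were also in the deep list, and 20 were not. The shared stop codons were 72.6% of the deep list, which held 2185 more. By contrast, ORF identifiers, which also carry the start codon, were shared for only 4324 of the 8456 in the standard list (51.1%) and of the 12048 in the deep list (35.9%). The deep list thus contained nearly every reading frame of the standard list, but gave another start or another transcript for about as many ORFs as it repeated.

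Shares of P-sites were close in both lists. Shared stop codons had 616847 P-sites in the standard list and 8928744 in the deep list, a ratio of 14.5, which is used below to scale the deep counts. The share ratio is the scaled deep count over the standard count, so that 1 means an equal share. Across the 5791 shared stop codons, log2 P-sites correlated with Pearson's r = 0.974 and Spearman's rho = 0.972. Over the 4413 stop codons with a mean scaled count of at least 20 P-sites, r was 0.977. These correlations are across genes, which are not replicates, and both lists share the annotation and the ORF caller. The correlation was 0.989 for the 2975 stop codons with an identical ORF in both lists and 0.951 for the 2799 with different start codons.

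**Figure D1:**
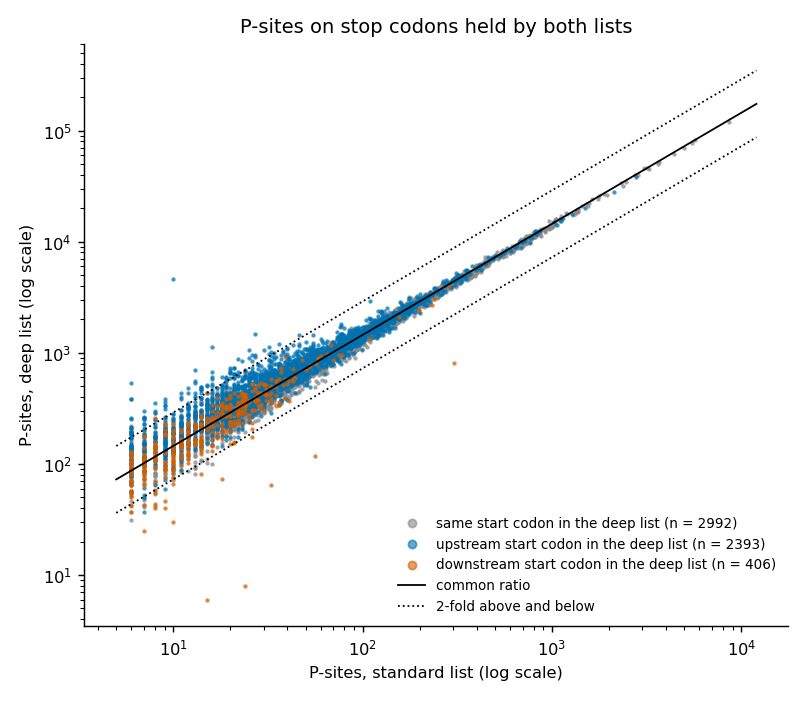
P-sites on each of the 5791 shared stop codons in the standard list (x axis, log scale) and the deep list (y axis, log scale), coloured by the start codon of the deep list, with the common ratio of 14.5 as a solid line and 2-fold above and below it as dotted lines. Stop codons with the same start codon follow the line, while the points above the upper dotted line at low counts are mostly those with an upstream start codon in the deep list, and Mlc-c, at 10 and 4575 P-sites, stands farthest above it.

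Where the ORF was identical, the spread between the lists was close to counting error for ORFs with fewer than 300 mean P-sites. The SD of the log2 share ratio over the 2975 identical ORFs was 0.265, against 0.264 computed from the P-site counts alone, and the 95% counting interval of the ratio held 1 for 2847 of them (95.7%, 94.9 to 96.4). In this comparison the ratio was set to identical ORFs (14.2), and the intervals take the reads of the lists as separate draws. Among the 662 stop codons with a mean of 100 to 300 P-sites the SD was 0.112, against a counting SD of 0.119. Below 20 P-sites the SD was 0.437, with a counting SD of 0.442, and 104 of 593 ORFs differed by more than 1.5-fold.

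Among identical ORFs, those with the most P-sites spread beyond counting error, by small amounts. For the 47 identical ORFs with 1000 or more mean P-sites the SD was 0.0564 against a counting SD of 0.0375, and 36 (76.6%) of the intervals held 1. The largest of these differences was 1.13-fold. Dp1, a vigilin-type RNA-binding protein, had 965 P-sites in the standard list and 15406 in the deep list, a ratio of 1.13 (1.06 to 1.20). The cofilin gene tsr had 3040 and 45761 P-sites (1.06, 1.02 to 1.1), and RpS27A, a ribosomal protein made as a ubiquitin fusion, 1188 and 18200 (1.08, 1.02 to 1.15). The elongation factor eEF1alpha1 had the most P-sites of all in both lists, 8581 and 120018, with a ratio of 0.988 (0.966 to 1.01). Act5C, a cytoplasmic actin, had 5716 and 82464 (1.02, 0.992 to 1.05), and the fatty acid synthase FASN1 had 4967 and 70311 (1.000, 0.971 to 1.03). Dp1, tsr, RpS27A and the genes named in the next paragraph were chosen after their values were seen.

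Among identical ORFs with at least 100 mean P-sites the extremes were modest. Ras85D, the small GTPase of growth factor signalling, had 87 P-sites in the standard list and 1663 in the deep list, a ratio of 1.35 (1.09 to 1.69). Orct2, an organic cation transporter, followed at 1.28 (1.1 to 1.5). The protein kinase Pkn was the lowest at 0.813 (0.677 to 0.984), with 125 and 1439 P-sites.

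**Figure D2:**
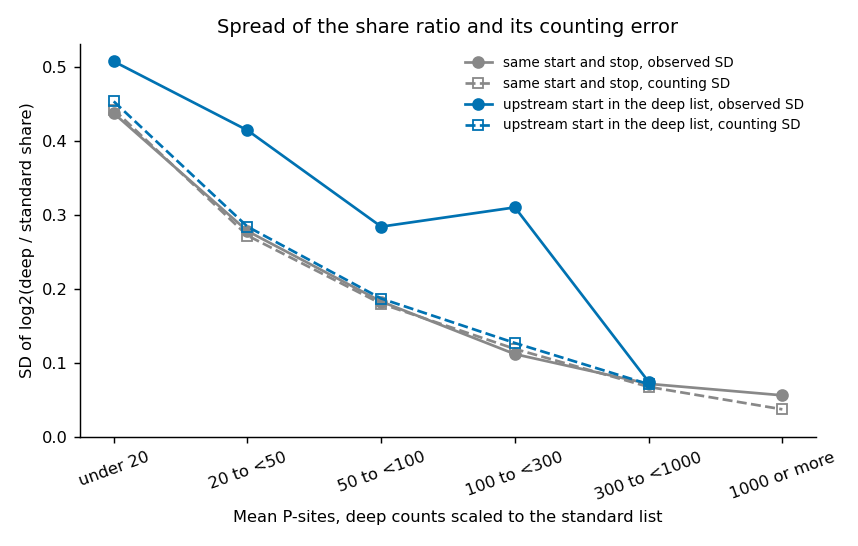
SD of the log2 share ratio (y axis) by mean P-sites with deep counts scaled to the standard list (x axis, classes), as observed (filled circles) and as computed from counts alone (open squares), for ORFs with the same start and stop codon (grey) and with an upstream start codon in the deep list (blue). The grey lines run together up to 300 to 1000 P-sites and part at 1000 or more (0.0564 against 0.0375), while the blue observed line lies above its counting line below 300 P-sites, at 0.414 against 0.284 for 20 to 50 P-sites.

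Stop codons that departed from the common ratio differed in start codon. Of 4413 stop codons with a mean scaled count of at least 20, 59 (1.34%) had a share at least 2-fold higher in the deep list and 2 (0.0453%) a share at least 2-fold lower. All 59 had an upstream start codon in the deep list, so that a longer ORF was counted there, and both lower ones had a downstream start codon. None of the 2394 tested stop codons with the same start codon was called. Of the 59, 2 could not be assigned to 1 gene, and the others lay in 52 genes. Their median ORF length was 1203 nt in the standard list and 3219 nt in the deep list. They were thinly covered in the standard list, with a median of 19 P-sites and at most 46.

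The largest departure was Mlc-c, the cytoplasmic myosin light chain (stop codon at position 5619877 of chromosome X, minus strand, Release 6). It had 10 P-sites on a 60 nt ORF in the standard list and 4575 on a 459 nt ORF in the deep list, a share ratio of 31.6 (17.2 to 66.0). Polr2F, a subunit of RNA polymerases, was the abundant gene that was lower, with 304 P-sites on 393 nt in the standard list and 814 on 216 nt in the deep list, a ratio of 0.185 (0.162 to 0.212). These were the only called genes with a mean of at least 100 P-sites. The other called genes are named after their values were seen. HINT1, a histidine triad protein, had 6 P-sites on 147 nt and 538 on 450 nt (6.19, 2.83 to 17.0). The centriole protein ana3 had 16 on 1419 nt and 1127 on 5850 nt (4.87, 2.98 to 8.54), and skd, a subunit of the Mediator kinase module, 13 on 936 nt and 694 on 8304 nt (3.69, 2.14 to 6.96). CG3224, the other lower one, had 56 on 480 nt and 118 on 267 nt (0.146, 0.105 to 0.204). In every one of these the direction of the share followed the direction of the length.

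Counts per length gave another picture of the same stop codons. With P-sites per 100 nt in place of P-sites, 8 of the 4413 stop codons were higher and 39 lower, in place of 59 higher and 2 lower, and 5 of the 8 and 2 of the 39 were also called by count. Of the 39 lower ones, 37 had an upstream start codon in the deep list. For the 1873 tested stop codons with an upstream start codon the median log2 ratio was 0.24 for length, 0.11 for share and -0.16 for P-sites per nt. Mlc-c stayed higher per length (4.34-fold), as did HINT1 (2.12-fold), whereas Lpt, with 34 P-sites on 486 nt and 793 on 4422 nt, was lower at 0.186. For these calls the per-length ratio was scaled to summed P-sites per nt, so its scale also differs from that by count. Klp31E, a kinesin, kept the same 3144 nt ORF, with 17 and 484 P-sites. In drongo the 2019 nt ORF was also unchanged, with 24 and 670 P-sites. Neither was called by count, and both passed 2-fold per length (2.06 and 2.02) by the change of scale alone. With only stop codons of the same start codon kept and scaled among themselves, Klp31E was the 1 called, at 2.01.

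The minimum of 20 P-sites left out 2-fold differences at low counts, in both directions. Without it, 102 of the 5791 stop codons were at least 2-fold higher and 39 at least 2-fold lower. Counting error alone can give such ratios there. Of the 593 identical ORFs with a mean under 20 P-sites, 17 passed 2-fold at an SD of 0.437, against a counting SD of 0.442. The lowest ratios, again named after their values were seen, were those of stas, with 24 P-sites on 522 nt in the standard list and 8 on 99 nt in the deep list (0.0230), and of Mef2, a transcription factor of muscle differentiation, with 15 on 1620 nt and 6 on 840 nt (0.0276). All 11 stop codons with a log2 ratio under -1.5 had a downstream start codon in the deep list. In M7BP the ORF was nevertheless longer there, at 7632 nt against 2382 nt, with a ratio of 0.307.

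The start codons of these genes were looked up in the other 3 lists. For 46 of the 59 higher stop codons at least 1 other list held the start codon of the deep list. In the list of E-RNaseI with cycloheximide, which held all 59, the deep start codon was called for 40, the standard start codon for 2 and another for 17. Of the other 3 lists Mlc-c was in this one alone, with 21 P-sites on the 60 nt ORF of the standard list. Polr2F had the 393 nt ORF of the standard list there, with 579 P-sites, but under A-RNaseI it had the 216 nt ORF of the deep list with cycloheximide (43 P-sites) and one of 147 nt without (28 P-sites). HINT1 was called with the 450 nt ORF in all 3 other lists, with 34 P-sites without and 55 with cycloheximide under A-RNaseI and 113 under E-RNaseI. For ana3 each list gave an ORF of its own length, with 5223 nt and 4134 nt under A-RNaseI without and with cycloheximide and 5697 nt under E-RNaseI with cycloheximide.

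Different start codons were common among all shared stop codons and pointed mostly upstream. The deep list had the same start codon for 2992 of 5791 (51.7%), an upstream one for 2393 (41.3%) and a downstream one for 406 (7.01%). Among the 2799 that differed, 85.5% (84.1 to 86.8) lay upstream in the deep list. Median ORF length of the shared stop codons rose from 1335 nt to 1491 nt. An upstream start codon added a median of 297 nt, and a downstream one removed 79.5 nt. The relation was read from the genomic positions of the longest ORFs, and 11 of the upstream and 19 of the downstream ones changed length the other way because another transcript was the longest. Within the same transcript, 3430 of 4037 differing pairs (85.0%) were upstream.

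Agreement on the start codon grew with P-sites. With 6 to 10 P-sites in the standard list, not counting 10, the same start codon was called for 35.3% of 425 stop codons (30.9 to 40), and with 1000 or more for 86.2% of 58 (75.1 to 92.8). Downstream start codons fell from 23.8% (20 to 28.0) to 0 of 58 over these classes. Upstream ones were 46.9% at 20 to 50 P-sites and 13.8% at 1000 or more.

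**Figure D3:**
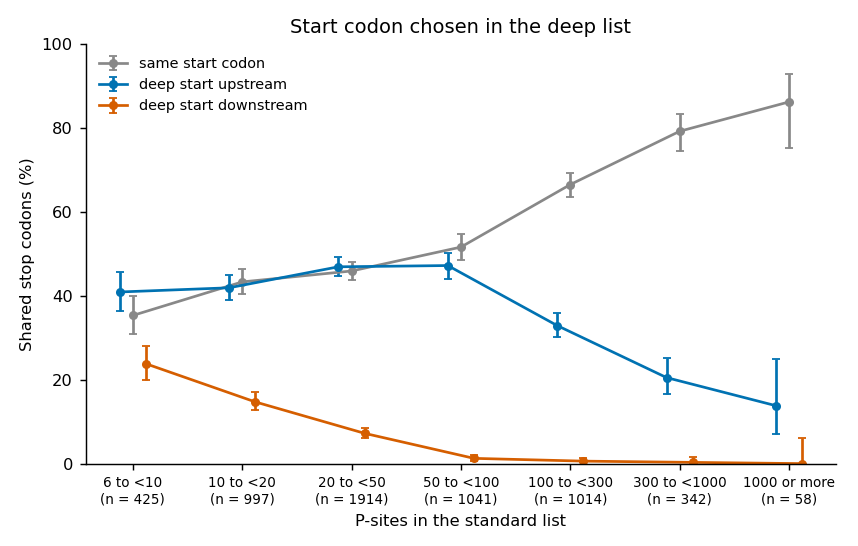
Share of shared stop codons (y axis, %) whose deep-list start codon was the same (grey), upstream (blue) or downstream (orange), by P-sites in the standard list (x axis, classes with the number of stop codons), with Wilson 95% intervals. The grey points go from 35.3% in the lowest class to 86.2% in the highest, the blue stay between 40.9% and 47.2% up to 100 P-sites and then decline, and the orange fall from 23.8% to 0.

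The longest distances belonged to genes with very long coding sequences. In dpy, which encodes a giant extracellular matrix protein, the start codon moved 28407 nt upstream, from an ORF of 16068 nt with 6 P-sites in the standard list to one of 44475 nt with 231 in the deep list. It was followed by skd with 7368 nt, then fry, a large scaffold protein, with 6198 nt and mv, the LYST homologue of lysosome traffic, with 6111 nt. The centrosomal pericentrin gene Plp (5844 nt), the ubiquitin ligase HERC2 (5772 nt), the anaphase-promoting complex subunit shtd (4824 nt), tweek (4662 nt), the actin-binding supervillin Svil (4614 nt) and ana3 (4431 nt) completed the 10 largest. All 10 had at most 109 P-sites in the standard list, and the other lists often gave yet another start codon: for dpy the ORF was 42621 nt under A-RNaseI and 22230 nt under E-RNaseI, both with cycloheximide.

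Distances downstream were shorter. Among the 10 largest were those of the synaptic vesicle priming gene unc-13 (1557 nt), the SAGA subunit Spt20 (1104 nt), the kinase gene dop (1059 nt), CG11248 (1020 nt), RhoGEF3 (999 nt) and the nuclear receptor Hr39 (945 nt). The srp gene, encoding the GATA factor of hemocytes, was well covered. It had 239 P-sites on a 3792 nt ORF in the standard list and 3079 on a 2850 nt ORF in the deep list, 942 nt shorter. Both lists with cycloheximide gave the 3792 nt ORF for srp, and the A-RNaseI list without it gave 2625 nt. The shortest of the 10 were those of dx, a regulator of Notch (939 nt), and of Svil on another transcript (933 nt).

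Across all 2393 stop codons with an upstream start codon in the deep list, 2371 were in the list of E-RNaseI with cycloheximide. The deep start codon was called there for 1499 (63.2%) and the standard one for 281 (11.9%). Under A-RNaseI without cycloheximide the order was the other way, with the deep start codon at 366 of 1894 (19.3%) and the standard one at 625 (33.0%). Under A-RNaseI with cycloheximide the deep start codon was at 771 of 2059 (37.4%) and the standard one at 473 (23.0%). Summed over stop codons, the E-RNaseI list with cycloheximide had 1947790 P-sites. The A-RNaseI lists had 610128 without and 899902 with it, against 617421 in the standard list. The part of depth in this was not tested.

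Most of the 2185 stop codons added in the deep list had, after scaling, fewer P-sites than any ORF of the standard list. Every ORF in either list had at least 6 P-sites, and 6 in the standard list equal 86.8 P-sites in the deep list. Scaled to the standard list, 1448 of the 2185 added stop codons (66.3%) had fewer than 6 P-sites, 642 had 6 to 20, and 95 (4.35%) had 20 or more. The standard list lacked 34.2% of the deep stop codons with 6 to 20 scaled P-sites and 2.09% of those with 20 or more. Of the added stop codons 1296 (59.3%) were in at least 1 of the other 3 lists. This share was 17.5% for those under 2 scaled P-sites and 92.6% (85.6 to 96.4) for those with 20 or more.

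**Figure D4:**
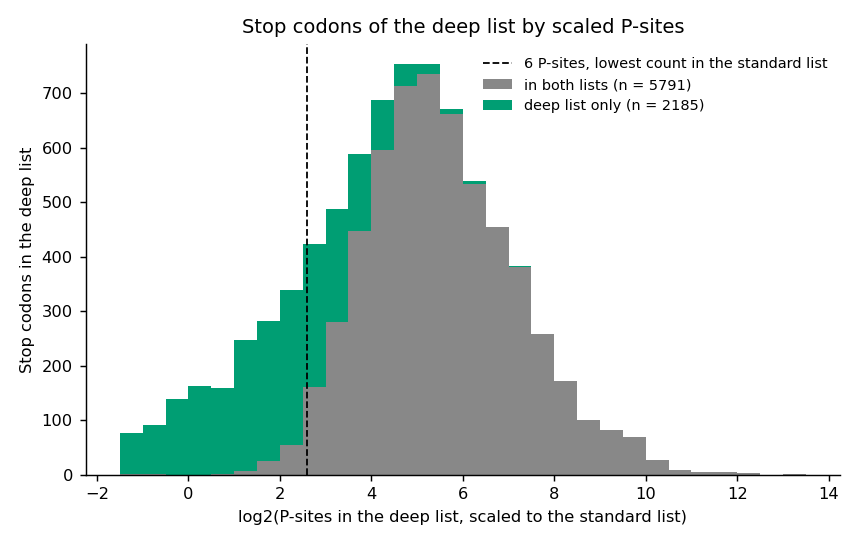
Stop codons of the deep list (y axis, number) by log2 of P-sites scaled to the standard list (x axis), stacked as those in both lists (grey) and in the deep list only (green), with the lowest count of the standard list, 6 P-sites, as a dashed line. Left of the line most stop codons are green (1448 added against 110 shared), and right of it the green part shrinks until it nearly ends, with 95 added against 4447 shared at 20 or more scaled P-sites.

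By gene, 1323 were added (for 5 of them the standard list held the same stop codon without an assigned gene), with a median of 67 P-sites in the deep list, or 4.63 scaled, against 636 for shared genes. Of these 788 (59.6%) had fewer than 6 scaled P-sites and 72 had 20 or more. Another list held 899 of the added genes (68.0%), and 424 were in the deep list alone. The 10 with most P-sites had scaled counts far above 6. RpL39, a small protein of the large ribosomal subunit, had 8852 P-sites on 153 nt in the deep list (611.5 scaled) and no ORF in the standard list. Under A-RNaseI it had 544 P-sites without cycloheximide and no ORF with it. Under E-RNaseI with cycloheximide it had only 33. The RNA-binding protein gene vig2 had 4995 P-sites (345.1 scaled) and was in 2 other lists with 418 and 1022. The snRNP and snoRNP protein gene hoip had 2513 and CG1943 had 2282. Clbn, a factor of ribosome quality control, had 1188 and was in all 3 other lists. The phagocytosis receptor gene eater had 1155 on 3222 nt, and betaTub97EF, a beta tubulin, 903 on 210 nt, and neither was in any other list. CG3719 (1119), CG17896 (939) and the complex I subunit ND-B14.5A (928) each were in 2 others. Why the standard list lacks these genes was not tested. For betaTub97EF, which has paralogs, reads that map to several genes may add to the count. The methods removed ORFs that rested largely on multimapping reads. This ORF was kept, but the part of such reads in its count is not known here.

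Few entries went the other way. Of the 20 stop codons found only in the standard list 12 were CCDS ORFs, 7 uORFs and 1 an ncORF, and 14 had under 20 P-sites. The splicing factor gene B52 had the most (197 P-sites on a 441 nt ORF) and kept other ORFs in the deep list. By gene, 7 were assigned an ORF in the standard list only, and for 1 of them, CG12379, the stop codon was in the deep list on an ORF that could not be assigned to 1 gene. The other 6 were Srp54, an SR-type splicing protein, with 123 P-sites, the co-chaperone gene Sgt1 with 49, lncRNA:CR43855 with 24, CG14095 with 14, Mesh1 with 13 and Uxs with 6. Srp54 was in all 3 other lists, with 80 and 142 P-sites under A-RNaseI and 392 under E-RNaseI with cycloheximide. Uxs was in none.

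Added ORFs were shorter. Their median length was 888 nt, against 1491 nt for the shared stop codons in the deep list, and 459 of 2185 (21.0%, 19.4 to 22.8) were under 300 nt, against 159 of 5791 (2.75%, 2.36 to 3.20). Among CCDS ORFs alone the median was 996 nt against 1494 nt. Of the deep-list stop codons with ORFs under 100 nt, 233 of 245 (95.1%) were added, and of those with ORFs of 6000 nt or more, 12 of 229 (5.24%). Added ORFs lay on a single exon in 27.9% of cases, against 11.2% for shared ones. They also had fewer P-sites per length, with a median of 7.82 per 100 nt in the deep list against 40.7. Few P-sites are in part given by the way the set is made, since a list holds only ORFs with at least 6. At 6 to 20 scaled P-sites the median length was 1116 nt for added and 1350 nt for shared stop codons. At 20 or more it was 1011 nt against 1548 nt, and at 2 to 6 it was 864 nt against 1083 nt. Under 2 it was 640.5 nt against 531 nt, with only 3 shared.

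**Figure D5:**
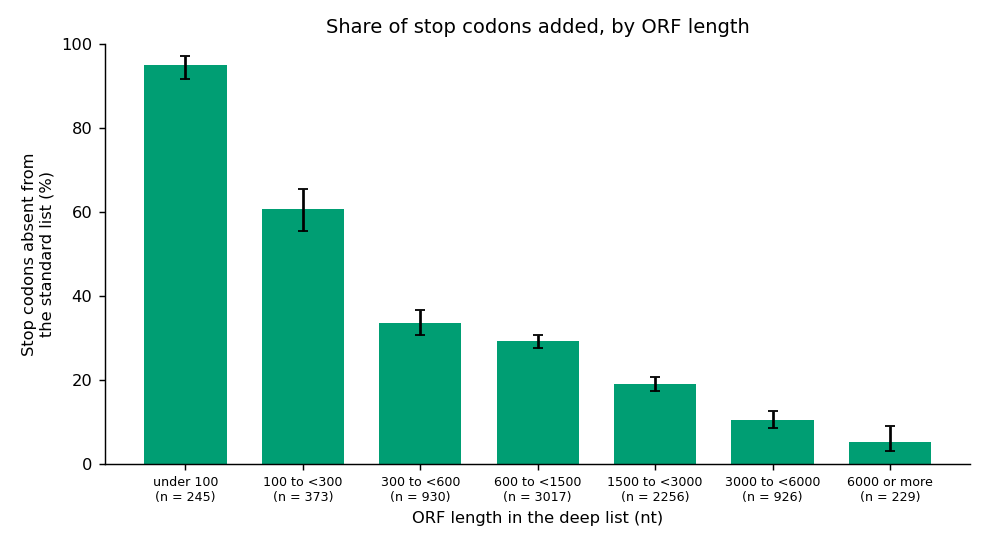
Share of the deep list's stop codons that were absent from the standard list (y axis, %) by ORF length in the deep list (x axis, nt, classes with the number of stop codons), with Wilson 95% intervals as bars. The share declines in every step, from 95.1% under 100 nt to 5.24% at 6000 nt or more.

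By unscaled count, ORF types other than CCDS ORFs grew most. CCDS ORFs went from 8430 to 11754 (1.39-fold) and uORFs from 23 to 263 (11.4-fold), so that uORFs made up 0.272% of the standard list and 2.18% of the deep list. dORFs went from 2 to 11 and ncORFs from 1 to 19. By stop codon, 12 uORFs were shared, 226 were added and 7 were only in the standard list, with at most 11 P-sites. Of the 226 added uORFs, 212 (93.8%) had fewer than 6 scaled P-sites, and 43 were in another list. Their median length was 57 nt. With deep counts scaled and 6 or more kept, 28 uORFs remained against the 23 of the standard list, and 9838 CCDS ORFs against 8430.

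Shared uORFs had share ratios of 0.405 to 1.20 with a median of 0.808, and the interval held 1 for 10 of 12. Only uORFs with enough P-sites to be called in the standard list can be among them. Xrp1, a bZIP transcription factor of stress responses, had the most P-sites, 90 on a 174 nt uORF in the standard list and 987 on a 354 nt one in the deep list (0.758, 0.610 to 0.951). Per length this uORF was lower, at 0.391. The small GTPase gene Arf6 had uORFs at 2 stop codons, with 60 and 659 P-sites at the first (0.759, 0.582 to 1.01) and 19 and 236 at the other (0.858, 0.537 to 1.45). PPP1R15, which directs dephosphorylation of eIF2alpha, had 37 and 485 on a 105 nt uORF (0.906, 0.648 to 1.3) and was in all 3 other lists. CG11857 had a uORF of 9 nt with 32 and 504 P-sites (1.09, 0.761 to 1.61). The lowest ratio with an interval below 1 was that of Tif-IA, an initiation factor of RNA polymerase I, with 20 and 166 P-sites (0.573, 0.360 to 0.963). Xbp1, the transcription factor of the unfolded protein response, had 8 and 139 on a 108 nt uORF that no other list held (1.20, 0.593 to 2.84). The histone-modifying complex gene e(y)2 had 14 and 208 P-sites.

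The added uORF with the most P-sites was a further one in Xrp1, of 51 nt, with 519 in the deep list and 63 in the E-RNaseI list with cycloheximide. It was followed by peg with 462 P-sites, spz, the gene of the Toll ligand, with 261, the DNA glycosylase gene Tdg with 185, and E(Pc) with 158 on a uORF of 597 nt. heca (138), RpL15 (130), SPoCk (121), ThrRS (120) and CG11791 (120) completed the 10 largest. uORFs of the deep list lay in 203 genes, of which 198 also had a CCDS ORF in the deep list and 175 in the standard list.

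Both dORFs of the standard list were also in the deep list. That of mthl3, a Methuselah-like receptor gene, had 13 and 126 P-sites on 165 nt (0.670, 0.378 to 1.29), and that of tmod, encoding tropomodulin, had 9 and 82 on 90 nt (0.629, 0.316 to 1.43). The dORFs added had at most 42 P-sites. The ncORF of the standard list, on lncRNA:CR43855, was absent from the deep list, and all ncORFs of the deep list were added. Those with the most P-sites were 3 on lncRNA:CR45473, with 189, 98 and 98 P-sites on 285, 201 and 198 nt, and 2 on lncRNA:CR43241 with 62 and 58. None of the 3 stop codons on lncRNA:CR45473 was in another list.

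Gene groups were compared over the CCDS ORFs of genes that could be assigned, with 1 stop codon per gene. Of the 27 lists, 22 had members with a mean scaled count of at least 20, with 410 genes in all. None of these was called at 2-fold in either direction, against 1.34% higher and 0.0453% lower over all stop codons tested. Of 52 large subunit ribosomal proteins 47 were in the standard list and 48 in the deep list, with a median log2 share ratio of -0.04 and the same start codon for 42 of the 47. They ranged from RpL36, with 249 and 3176 P-sites (0.881, 0.774 to 1.01), to RpL35A, with 179 and 2860 (1.1, 0.949 to 1.29). Small subunit proteins, 31 measured, had a median of -0.03. The 60 measured members of the respiratory chain and ATP synthase had a median of -0.07 and the 31 of the proteasome -0.02. The median over all genes was 0.01, and over the 2394 tested stop codons with the same start codon it was -0.03. The median shares of these complexes thus differed little between the lists.

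The 15 measured genes of Notch, Wnt, Hedgehog and BMP signalling had a median log2 share ratio of 0.41, and 11 of them had an upstream start codon in the deep list. Their median was 22 P-sites in the standard list. The Notch co-activator gene mam had 16 P-sites on 2076 nt and 463 on 4368 nt (2.00, 1.22 to 3.53), just under the cut for a call, and Mad, a BMP signal transducer, 64 and 738 (0.797, 0.617 to 1.05). Per length the median of this list was -0.0039. The insulin and TOR pathway, with 13 measured, had a median of 0.17 by P-sites and -0.08 per length. The integrated and unfolded protein stress response list had a median of 0.05. Its kinase gene PEK had 91 and 1034 P-sites on the same ORF (0.785, 0.633 to 0.984). By scale, 8 of the 19 lists with at least 5 measured genes had a median above 0 by P-sites and 13 per length, and 11 changed sign, so that no direction is given for a list. The common scale was also set anew per length, which moved lists of mostly unchanged ORFs. Small subunit proteins, with the same start codon for 29 of 31, went from -0.03 to 0.04. The actin and tubulin list, with 10 of 11, went from -0.008 to 0.06. These changes of sign are thus not an effect of length alone.

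Members added to the lists in the deep list are set against all genes, of which 1323 of 6124 (21.6%) were added. Mitochondrial ribosomal proteins went from 65 to 71 of 73, aminoacyl-tRNA synthetases from 27 to 31 of 33 and DNA replication from 19 to 22 of 22, so that 8.45%, 12.9% and 13.6% of their listed members were added. The 4 added synthetases were all mitochondrial: PheRS-m with 220 P-sites, TyrRS-m with 208, ValRS-m with 206 and CysRS-m with 116 in the deep list. Notch itself (N, 150 P-sites) and Su(H), the DNA-binding protein of its pathway (95), were added, as were the ecdysone receptor gene EcR (114) and its target Eip74EF (166), and the cell death genes rpr (115) and hid (38).

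Markers of cell types were checked in the same way. Of 13 hemocyte genes 5 were in the standard list (Pxn, srp, ush, crq and drpr) and 10 in the deep list, which added eater, Col4a1 with 98 P-sites, Hml with 52, Sr-CI with 35 and vkg with 30. The 5 added of 10 compare with 21.6% over all genes, and nothing is drawn from so few. The extracellular matrix peroxidase gene Pxn was the highest of them, with 604 and 8291 P-sites (0.948, 0.873 to 1.03). Of the neuron, fat body and gut, and epidermis and trachea markers no member was assigned an ORF in either list, though 2 of the 6 neuron markers lie where several genes overlap and could not be assigned. Of 6 muscle markers only sls was, with 9 and 125 P-sites. Of 5 germ line markers aub (146 and 2088 P-sites) and bam (8 and 44) were in both lists and piwi, with 15, was added.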

How the data were processed

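Ribosome footprints of untreated S2 cells (E-RNaseI, Buffer 2) were taken from 2 lists, standard and deep, with 3 other lists of the series used for look-up. The authors used cutadapt 2.10 for adapters and Bowtie2 2.4.1 to discard ribosomal and transfer RNA, aligned with STAR 2.7.5c to FlyBase release 6 and sorted with SAMtools 1.10, per the methods and the submitters' processing notes, and called ORFs with RiboTaper. The deposited lists give, per ORF, a whole-number count, repeated on each exon and taken here as its P-sites, which the sources used here do not name.

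The longest ORF represented each stop codon. Intervals of ratios are exact conditional binomial 95% intervals, those of shares Wilson intervals, and all cover counting error only. PCR duplicates were not marked by molecular identifiers, and ORFs of the same gene are not independent. With 1 sample a side no p-value was computed. A stop codon was called at 2-fold or more with a mean scaled count of at least 20 P-sites. Genes were assigned by position where exactly 1 gene of the RefSeq table (17872 genes, 13962 protein-coding) spanned the ORF, and strand was not used. Positions may differ by 1 nt at an outer edge.

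Genes were named by rule: the 10 largest called ratios each way with a mean of at least 100 P-sites, the 10 genes added and lost with most P-sites, the 10 largest start distances each way, the shared and added uORFs, dORFs and ncORFs with most P-sites, and extremes of the gene lists. Others are said to be chosen after seeing their values. Some genes that the rule selects are not reported here. Members, lists and alternatives were chosen with earlier results of these data known, and the histone and cuticle lists were narrowed after their members were seen. On simulated data from 7714 stop codons, 100% of 200 stop codons changed 4-fold were called and 2 others, and 300 of 300 start shifts were found. The changed stop codons were drawn from well covered ones, and the counts held counting error only. The simulation therefore does not show how calls at 2-fold and low counts fare. The start shifts were written into the positions that were then compared, so finding all of them was fixed in advance and checks the code only. Python 3.11.15, numpy 2.4.6, pandas 2.3.3, scipy 1.17.1 and matplotlib 3.10.9 were used.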

Additional observations from a re-analysis of the deposited data

How the results depend on the processing

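Of 31 other settings 13 left the value within its error or within 1.5 times the count. The correlation of P-sites (0.977) was 0.987 per 100 nt, 0.991 with the same start codon only, 0.974 with no minimum and 0.983 with a minimum of 100. The 61 called stop codons became 263 at 1.5-fold, 5 at 4-fold, 141 with no minimum, 2 with a minimum of 100 and 1 with the same start codon only. The 2185 added stop codons became 7724 as ORF identifiers, 1323 as genes and 737 when deep counts were scaled and 6 or more kept. The ratio of uORFs (11.4) was 23.5 with at least 20 P-sites in each list and 1.22 with scaled counts of 6 or more. The median length of added ORFs (888 nt) was 1572 nt by ORF identifier and 996 nt for CCDS ORFs. The share of upstream start codons (85.5%) was 98.3% with at least 100 P-sites in the standard list. The number of gene lists with a median above 0 (8) was 13 per 100 nt, where the common scale was also set anew. A smaller set of stop codons follows from the construction of the minimum and same-start settings, and otherwise the cause was not tested. Below 20 mean P-sites the counting SD of the log2 ratio was 0.442 for identical ORFs, which limits what single ratios there can show. Start codons differed in every class of P-sites.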

Other observations

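The deep list held 1 ORF without a type, of 180 nt in Jupiter, a microtubule-associated protein, with 18 P-sites. By chromosome arm, added stop codons made up 25.4% (3R) to 30.7% (X) of the deep list, and 23 of 71 (32.4%) on chromosome 4. The median log2 share ratio of the arms lay between -0.01 (X) and 0.04 (chromosome 4).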
